A study of Homo sapiens with 12 samples.

Results

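The RAP1 switch and the enzymes that turn it on and off were followed in 10 genes of the RNA-Seq count table of A549 cells with and without GFI1. The genes were chosen by name, as the rows whose gene symbol was RASGRP1, RASGRP2, RASGRP3, RASGRP4, RAP1A, RAP1B, RAPGEF1, RAPGEF2, RAP1GAP or SIPA1, and all 10 were found among the 58735 genes of the table. The cells were A549, a long-established line from a human lung adenocarcinoma, which normally grows as an adherent layer. Cells transduced with a GFI1 lentivirus, a pool sorted by a GFP marker rather than a single clone, and control A549 cells were collected attached or after 48 hours of forced suspension. The 4 groups of 3 libraries were attached control, attached GFI1, floating control and floating GFI1, and the control cells' vector is not given by the labels. The labels do not say whether replicates were separate cultures, so p values measure the spread between libraries, which may be technical.

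RAP1A and RAP1B are small GTPases of the RAS family that are active when bound to GTP and are known for switching integrins and cell junctions between weak and firm adhesion. Guanine nucleotide exchange factors load them with GTP, and GTPase-activating proteins end the signal by speeding GTP hydrolysis. RASGRP2, also called CalDAG-GEFI, is a calcium-responsive exchange factor for RAP1 that is best known in platelets and neutrophils, where it leads to integrin activation. RASGRP1, RASGRP3 and RASGRP4 act on RAS, and RASGRP3 on RAP1 as well, in lymphocytes and mast cells. RAPGEF1 is recruited by CRK adaptors, RAPGEF2 is a RAP exchange factor of junctions and neurons, and RAP1GAP and SIPA1 (SPA-1) are GTPase-activating proteins for RAP1. RNA levels do not measure GTP loading, and no RAP1 activity was measured in these libraries. The study measured it separately by pulldown of the GTP-bound form. It reported that, in suspended A549 cells, GFI1 raised the activation of RAP1 and not that of RAS.

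The DNA upstream of RASGRP2 is shown first, because the study probed it for histone marks and GFI1 by chromatin immunoprecipitation (ChIP), and RASGRP2 had the largest GFI1 effect of the 10 genes. In hg38, the body of RASGRP2 (ENSG00000068831) covers positions 64726911 to 64745456 of chromosome 11, read from the minus strand. The RefSeq promoter window of RASGRP2 (GRCh38.p14) covers 250 bases before and 50 bases after a start at position 64745348, and 65% of its bases are G or C. The sequence below runs 5' to 3' on the gene's strand from the far end of that window to its single match to AATC, the core of the GFI1 motif, or to the reverse complement GATT. The match, in capitals, begins 107 bases before the RefSeq start. The last 5 bases shown, which include it, lie inside the gene body as the table gives it.
RASGRP2 upstream, chr11:64745452-64745598: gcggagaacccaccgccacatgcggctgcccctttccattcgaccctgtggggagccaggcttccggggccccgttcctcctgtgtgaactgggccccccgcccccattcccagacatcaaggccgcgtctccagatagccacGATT
The longer form AAATCA, which contains AATC, or its reverse complement TGATTT, was not in the RASGRP2 window. On either strand, AATC occurs in 69% of 35116 RefSeq promoter windows of the same 300-base length and AAATCA in 13.2%. Such a match alone therefore does not show whether GFI1 binds there. By ChIP with sequencing and with PCR, the study reported transfected GFI1 at the promoter and enhancer of RASGRP2 in A549 cells. The amplicon of its primer pair 8 contains the match shown above.

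The 10 primer pairs with which the study scanned the RASGRP2 locus each matched the locus once in hg38, with amplicons of 75 to 115 bases. Of these, 3 overlap the body of RASGRP2 and 7 overlap the body of PYGM, the muscle glycogen phosphorylase gene on the same strand. The table ends PYGM 0.933 kb upstream of the body of RASGRP2. Of the 7 amplicons in PYGM, 3 lie in introns and 4 touch an exon.

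The libraries held 17014188 to 20748677 counts each, with 26273 to 28042 genes detected. GFI1 itself was read 4 to 12 times in control libraries and 5154 to 12796 times in GFI1 libraries. Lung epithelial keratin transcripts (KRT7, KRT8, KRT18) were abundant in all groups, but KRT8 fell 3.11-fold, KRT18 4.03-fold and EPCAM 3.75-fold with GFI1 in attached cells, and KRT19 rose 1.76-fold. The sum of 6 epithelial markers was 10385 to 10986 CPM in attached control and 4221 to 4339 CPM in attached GFI1 libraries, and the part of this fall in the results below was not tested. CDH1, the epithelial cadherin that marks this cell type, was at 118, 119 and 122 CPM in attached control cells and at 6.48, 5.77 and 7.11 CPM in attached GFI1 cells. CPM are read counts scaled to a common library size, with TMM factors that correct for library composition. In edgeR's quasi-likelihood test on 17829 genes, with Benjamini-Hochberg adjustment and a threshold of 0.05, 62.3% of genes passed for GFI1 in the attached state and 60.4% in the floating state. Suspension passed for 40.1% of genes in control cells and 31.3% in GFI1 cells. Of the 10 genes followed here, 9 had enough counts to be tested and RASGRP3 did not.

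In attached cells, 4 of the 9 tested genes rose with GFI1 and 2 fell, against 29.5% of all genes that rose and 32.8% that fell. RASGRP2, RAP1GAP, RAPGEF2 and SIPA1 rose, RAP1A and RAP1B fell, and RASGRP1, RASGRP4 and RAPGEF1 did not pass the threshold. The GFI1 and control libraries did not overlap for 6 of the 9 in attached cells and 6 of the 9 in floating cells, against 67.0% and 64.4% of all genes. In floating cells, 4 rose and 1 fell, against 29.3% and 31.1% of all genes. The median log2 change of the 9 genes was 0.36 in attached cells, where all genes had -0.01, and 0.48 in floating cells, where all genes had 0.01. Both exchange factors and GTPase-activating proteins were among those that rose, while the GTPases themselves were among those that fell. In these bulk libraries, fewer cells with a transcript and less of it per cell cannot be told apart.

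**Figure D1:**
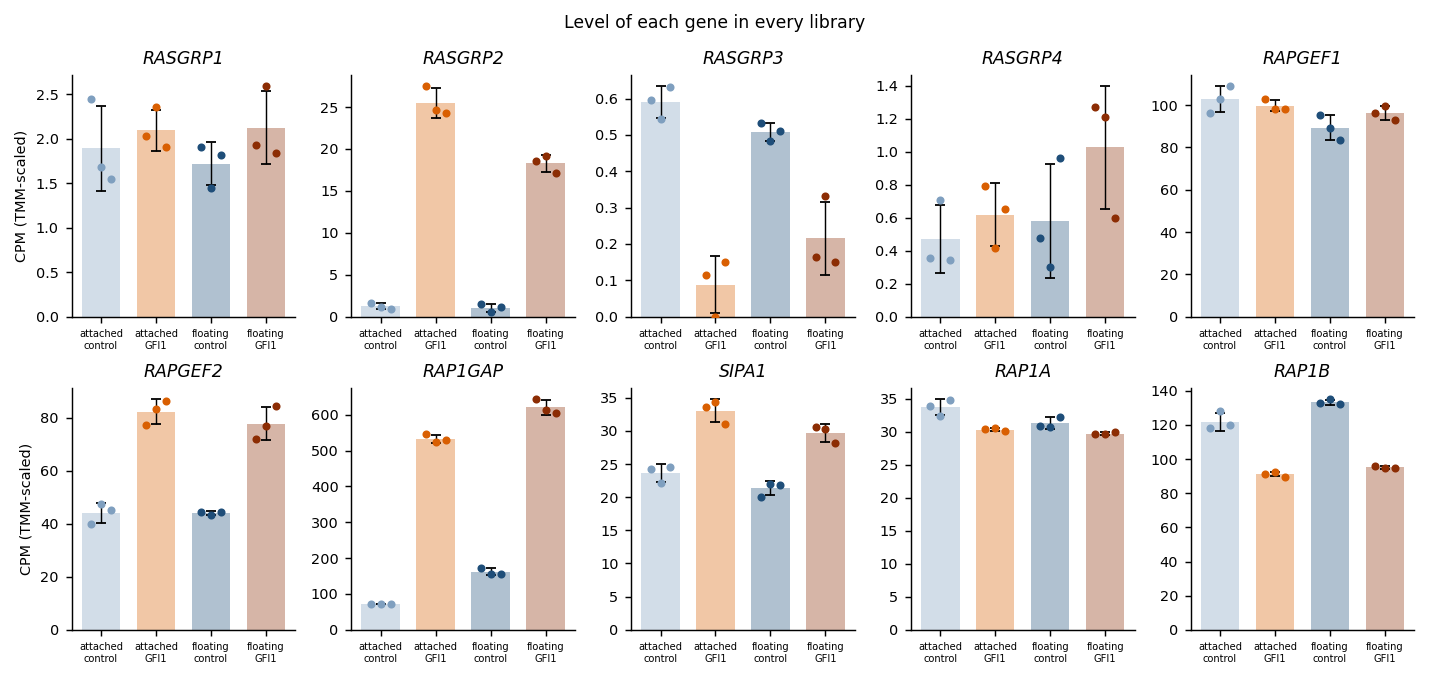
TMM-scaled CPM of the 10 genes in every library (points), with group means (bars) and SD (whiskers, n = 3), in attached and floating control and GFI1 cells; each panel has its own axis from 0. RASGRP2 and RAP1GAP are higher in every GFI1 library than in any control library, and RAP1B is lower in every GFI1 library.

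Among the RASGRP exchange factors, RASGRP2 went from trace to moderate levels with GFI1. In attached control cells it was read at 1.61, 1.19 and 0.918 CPM, and in attached GFI1 cells at 27.5, 24.6 and 24.3 CPM. In floating control cells it was at 1.48, 0.482 and 1.13 CPM, and in floating GFI1 cells at 18.6, 19.1 and 17.1 CPM. All 6 GFI1 libraries lay far above all 6 control libraries, and the control values of attached and floating cells overlapped. Each control library held only 8 to 27 RASGRP2 reads, so the fold is less certain than its p value. The fitted rise in attached cells was 20.5-fold (log2 4.36 ± 0.16 SE, edgeR adjusted p = 9.55e-18). For floating cells it was 17.5-fold (4.13 ± 0.18, adjusted p = 1.62e-16). By log2 change, RASGRP2 ranked 87 from the top of the 17829 genes for the attached state and 84 for the floating state.

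Suspension lowered RASGRP2 in cells that carried GFI1, with no overlap between the attached and floating GFI1 libraries. It fell 1.39-fold (log2 -0.48 ± 0.10, adjusted p = 0.000855), while GFI1 itself went from 290, 294 and 286 CPM to 545, 706 and 430 CPM (log2 0.95 ± 0.10, adjusted p = 2.38e-08). RASGRP2 and GFI1 thus moved in opposite directions between attached and floating GFI1 cells. The corresponding value for control cells was -0.25 ± 0.30 (adjusted p = 0.544). Tested directly, the suspension effects differed by -0.23 ± 0.32 (adjusted p = 0.735). The fall in GFI1 cells is therefore not shown to differ from the value in control cells.

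RASGRP1, a RAS exchange factor of T cells, was present at similar trace levels in all groups. It was at 2.44, 1.68 and 1.55 CPM in attached control cells, 2.03, 2.35 and 1.90 in attached GFI1 cells, 1.90, 1.44 and 1.81 in floating control cells and 1.93, 2.59 and 1.84 in floating GFI1 cells. The groups overlapped in attached cells, and the GFI1 effects were 0.16 ± 0.23 (adjusted p = 0.581) in attached and 0.30 ± 0.24 (adjusted p = 0.292) in floating cells. RASGRP4, the mast cell member, had 5 to 23 reads per library. Its GFI1 effect was 0.36 ± 0.47 (adjusted p = 0.528) in attached cells and 0.79 ± 0.42 (adjusted p = 0.111) in floating cells. The floating value passed the threshold at 1.37 without floating control replicate 3 (adjusted p = 0.0226) and at 1.08 without floating GFI1 replicate 3 (adjusted p = 0.0342). RASGRP4 overlaps FAM98C on the opposite strand, which had 443 to 911 reads per library, and the strand setting of the counting was not stated, so RASGRP4 reads are uncertain.

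RASGRP3, known from B cells, had the reverse direction to RASGRP2. It was read 10, 10 and 11 times in attached control libraries and 2, 0 and 3 times in attached GFI1 libraries. In floating cells it was read 9, 8 and 9 times in control and 3, 6 and 3 times in GFI1 libraries. GFI1 and control libraries did not overlap in either state. In attached cells the mean control level of RASGRP3 was 3.87-fold above a floor of 3 counts per GFI1 library. This ratio makes no allowance for error in the control mean and is not a bound on the fall. Fitted without the low-count filter, a fit added after the data were seen, the attached change passed the threshold (log2 -2.72 ± 0.67, adjusted p = 0.000223) and the floating change did not (-1.23 ± 0.58, adjusted p = 0.111).

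Of the summed RASGRP reads per kilobase of gene model, RASGRP2 made up 29.7% in attached control cells and 89.4% in attached GFI1 cells. In floating cells the shares were 25.6% and 83.2%. The share ranged from 18.3% to 34.0% over the floating control libraries, the widest of the 4 groups, and from 89.3% to 89.5% over the attached GFI1 libraries. The control shares rest on 8 to 27 RASGRP2 reads per library and depend on the gene length used. In attached control cells RASGRP2 was below RASGRP1 with the table's lengths (0.204 and 0.310). It was above RASGRP1 with the lengths of the canonical transcripts (0.547 and 0.376).

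The RAPGEF exchange factors differed from each other. RAPGEF2 was at 40.0, 47.4 and 45.3 CPM in attached control cells and 77.3, 83.2 and 86.5 CPM in attached GFI1 cells. It was at 44.3, 43.3 and 44.6 CPM in floating control cells and 72.0, 76.9 and 84.5 CPM in floating GFI1 cells. GFI1 and control libraries did not overlap, and RAPGEF2 rose 1.86-fold in attached cells (log2 0.90 ± 0.06, adjusted p = 3.61e-12), against 1.77-fold in the floating state (0.82 ± 0.06, adjusted p = 2.53e-11). Suspension gave -0.01 ± 0.07 in control and -0.08 ± 0.06 in GFI1 cells for RAPGEF2, with adjusted p of 0.952 and 0.330.

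RAPGEF1, the most abundant exchange factor of the list in every group, gave no call with GFI1 in either state. Its values were 96.5, 103 and 109 CPM in attached control cells, 103, 98.2 and 98.3 in attached GFI1 cells, 95.3, 89.2 and 83.6 in floating control cells and 96.2, 99.6 and 93.2 in floating GFI1 cells. The control and GFI1 libraries overlapped in both states. The GFI1 effect was -0.04 ± 0.05 (adjusted p = 0.526) in attached cells and 0.11 ± 0.05 (adjusted p = 0.0754) in floating cells. The floating value passed the threshold with upper quartile scaling (0.16, adjusted p = 0.0119), with library size only (0.24, adjusted p = 0.000288) and with a minimum of 10 counts in every library (0.13, adjusted p = 0.0362). It also passed without floating control replicate 1 (0.16, adjusted p = 0.0216) and without floating GFI1 replicate 3 (0.13, adjusted p = 0.0420). Suspension lowered RAPGEF1 in control cells (log2 -0.20 ± 0.05, adjusted p = 0.00300), and in GFI1 cells the difference was -0.05 ± 0.05 (adjusted p = 0.485).

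RAP1GAP was the most abundant of the 10 genes per kilobase with GFI1 and the 1 gene of the 9 that passed the threshold in all 4 pairwise comparisons. It was at 72.5, 71.2 and 71.9 CPM in attached control cells and rose to 545, 523 and 530 CPM in attached GFI1 cells. It was at 173, 156 and 157 CPM in floating control cells and 643, 614 and 604 CPM in floating GFI1 cells. The 4 groups did not overlap, in the order attached control, floating control, attached GFI1 and floating GFI1. RAP1GAP rose 7.41-fold with GFI1 in attached cells (log2 2.89 ± 0.05, adjusted p = 9.44e-25), against 3.83-fold in the floating state (1.94 ± 0.05, adjusted p = 6.40e-22).

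Suspension raised RAP1GAP 2.25-fold in control cells (log2 1.17 ± 0.05, adjusted p = 1.14e-15) and 1.16-fold in GFI1 cells (0.22 ± 0.04, adjusted p = 0.000279). The GFI1 effect was smaller in floating than in attached cells by 0.95 log2 units (interaction -0.95 ± 0.06, adjusted p = 2.81e-10), and RAP1GAP was the 1 gene of the 9 with such a difference, against 10.8% of all genes tested (4.76% positive and 6.01% negative). The interaction stayed between -0.99 and -0.90 when each library was left out in turn.

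SIPA1, the other GTPase-activating protein, rose by less than RAP1GAP. Its values were 24.3, 22.1 and 24.6 CPM in attached control cells and 33.6, 34.4 and 31.1 in attached GFI1 cells. In floating cells they were 20.1, 22.0 and 21.9 CPM in control and 30.6, 30.3 and 28.2 in GFI1 libraries. No GFI1 library overlapped the control libraries of its state, and SIPA1 rose 1.40-fold in attached cells (log2 0.48 ± 0.07, adjusted p = 1.10e-06), against 1.39-fold in the floating state (0.48 ± 0.07, adjusted p = 2.07e-06). Suspension gave -0.15 ± 0.07 for SIPA1 in both control cells (adjusted p = 0.105) and GFI1 cells (adjusted p = 0.0805).

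Of the GTPases, RAP1B fell with GFI1 in both states and RAP1A passed the threshold in attached cells. RAP1B was at 118, 128 and 120 CPM in attached control cells and 91.1, 92.3 and 89.8 in attached GFI1 cells. In floating cells RAP1B was at 133, 135 and 132 CPM in control and 96.0, 94.8 and 94.5 in GFI1 libraries. All GFI1 libraries lay below all control libraries. RAP1B fell 1.34-fold in attached cells (log2 -0.42 ± 0.04, adjusted p = 2.53e-09), against 1.40-fold in the floating state (-0.49 ± 0.04, adjusted p = 1.61e-10). With suspension, RAP1B was 0.13 ± 0.04 log2 units higher in control cells (adjusted p = 0.0136). That call was lost without attached control replicate 1 (adjusted p = 0.0737), attached control replicate 3 (adjusted p = 0.0661) or floating control replicate 2 (adjusted p = 0.0540).

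RAP1A was at 33.9, 32.4 and 34.8 CPM in attached control cells and 30.4, 30.5 and 30.1 in attached GFI1 cells, without overlap. In floating cells RAP1A was at 30.9, 30.7 and 32.3 CPM in control and 29.6, 29.6 and 30.0 in GFI1 libraries. The attached difference just passed the threshold (log2 -0.15 ± 0.06, adjusted p = 0.0242), and the floating one was -0.07 ± 0.06 (adjusted p = 0.285). The attached call was lost with DESeq2 (adjusted p = 0.0832), with upper quartile scaling (adjusted p = 0.135) and with library size only, where the value was -0.00 (adjusted p = 0.955). It was lost under 12 alternatives in all, 6 of them the omission of a single library. RAP1A pseudogenes and RAP1B pseudogenes had at most 2 reads in any library.

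**Figure D2:**
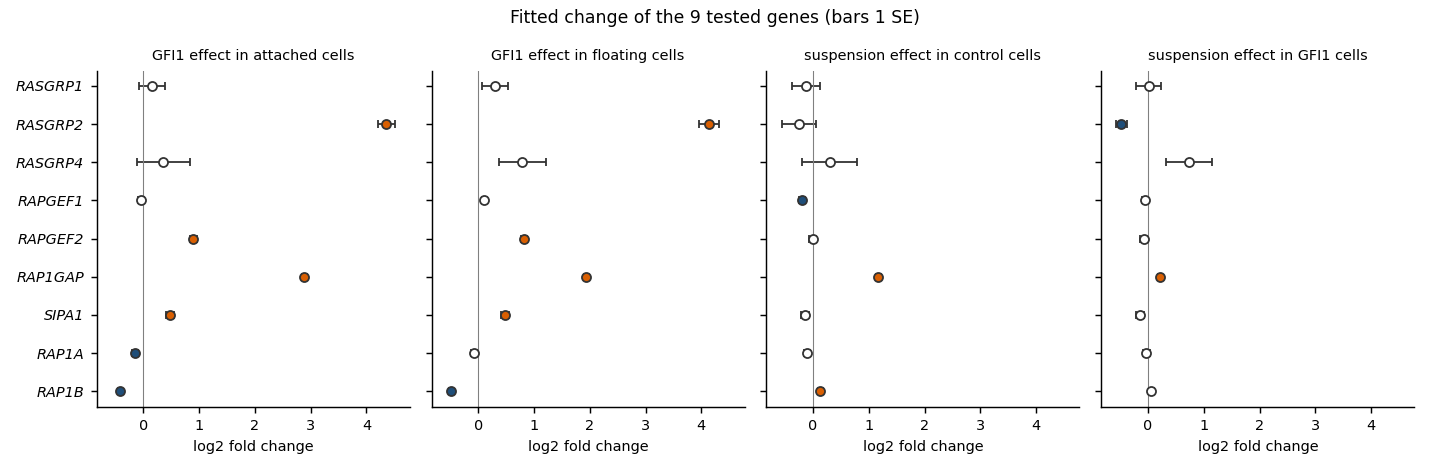
Fitted log2 fold change (x axis) of the 9 tested genes for the GFI1 effect in attached and floating cells and the suspension effect in control and GFI1 cells; bars are 1 SE and filled points passed the threshold (orange higher, blue lower). RASGRP2 and RAP1GAP stand to the right of all other genes in both GFI1 panels, and RAP1GAP alone is past 1 log2 unit in a suspension panel.

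In control cells 2 of 9 rose (RAP1GAP and RAP1B) and 1 fell (RAPGEF1), against 19.6% and 20.5% of all genes. In GFI1 cells 1 rose (RAP1GAP) and 1 fell (RASGRP2), against 15.0% and 16.3%. Attached and floating libraries did not overlap for 5 of the 9 in control cells and 5 of the 9 in GFI1 cells, against 49.9% and 41.4% of all genes. The median log2 change of the 9 genes was -0.11 in control cells and -0.03 in GFI1 cells, beside 0.01 and 0.00 over all genes.

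Levels can be compared between the genes as CPM per kilobase of the gene length in the table. In attached control cells the order of mean levels was RAPGEF1 (14.7), RAP1GAP (12.5), RAP1B (7.20), RAP1A (6.09), SIPA1 (5.07), RAPGEF2 (3.33), RASGRP1 (0.310), RASGRP2 (0.204), RASGRP4 (0.112) and RASGRP3 (0.0531). The SD was 0.0789 for RASGRP1 and 0.0570 for RASGRP2. With the length of the canonical transcript, used as an added alternative, RAP1GAP (21.6) stood above RAPGEF1 (15.2) and RASGRP2 (0.547) above RASGRP1 (0.376). In attached GFI1 cells RAP1GAP was at 92.5 ± 1.94 and RAPGEF1, the next, at 14.3 ± 0.432 CPM per kilobase (SD, n = 3). RASGRP2 reached 4.19 ± 0.291, below RAP1B at 5.37 ± 0.0736. The table's length for RASGRP2 is a union of exons of 6084 bases and its canonical transcript is 2268 bases, and with the canonical length the order in attached GFI1 cells turned, with RASGRP2 at 11.2 and RAP1B at 6.81.

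Summed by role, the per-kilobase level of the 6 exchange factors was 18.7 in attached control and 25.2 in attached GFI1 cells. That of RAP1GAP and SIPA1 together was 17.6 and 99.6. The ratio of GTPase-activating protein to exchange factor transcripts was 0.905 to 1.01 in attached control libraries and 3.94 to 3.97 in attached GFI1 libraries. In floating cells it was 1.93 to 1.99 in control and 4.73 to 5.18 in GFI1 libraries. The 4 groups did not overlap in this RNA ratio, which was higher with GFI1 in both states. The fold rise of RASGRP2 was nevertheless larger than that of RAP1GAP. This ratio covers only the exchange factors and GTPase-activating proteins among the 10 genes, and RASGRP1 and RASGRP4 in it act on RAS. Left out of it are, for example, SIPA1L3 (19.7 in attached control and 23.9 in attached GFI1 cells) and RAP1GAP2 (4.25 and 1.34). Using canonical lengths and group means, the ratio was 1.3 and 4.6 in attached cells and 2.78 and 5.97 in floating cells. RAP1GAP made up 71.1% of the GTPase-activating protein sum in attached control cells and 92.9% in attached GFI1 cells. It exceeded RASGRP2 per kilobase by 64.5-fold on average in attached control libraries, with a range of 47.7 to 82.8, and 22.1-fold in attached GFI1 libraries. In floating cells the mean was 204-fold in control libraries, with a range of 124 to 342, and 35.9-fold in GFI1 libraries. The floating control mean was 135 without floating control replicate 2, which held 8 RASGRP2 reads. With canonical lengths the ratios of group means were 39.5 and 14.3 in attached cells and 107 and 23.2 in floating cells. The ratio of RAP1A to RAP1B per kilobase was 0.848 ± 0.0611 in attached control and 1.02 ± 0.00779 in attached GFI1 cells (SD, n = 3), and 0.718 ± 0.0292 and 0.958 ± 0.0148 in floating cells.

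**Figure D3:**
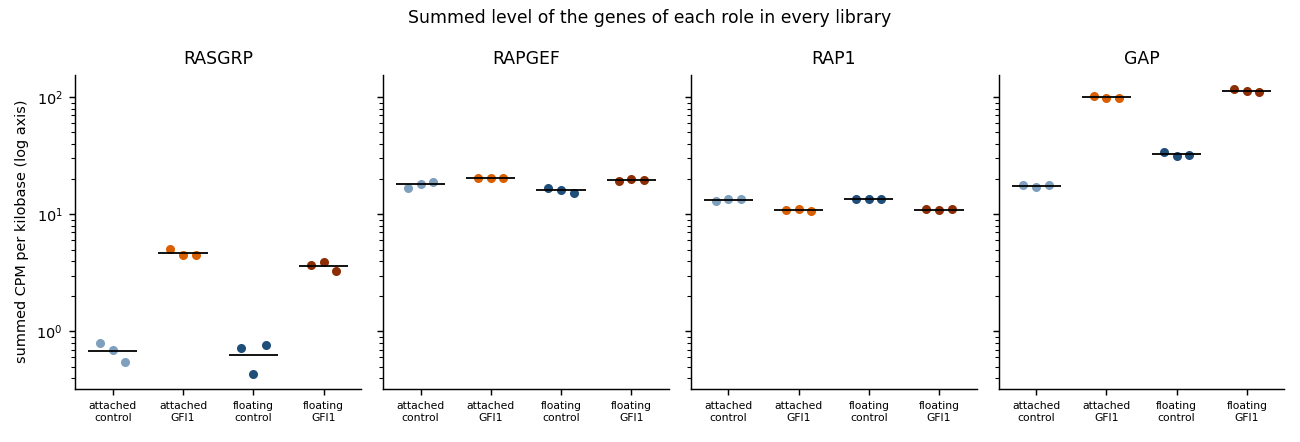
Summed CPM per kilobase (log axis) of the 4 RASGRP genes, the 2 RAPGEF genes, RAP1A with RAP1B, and RAP1GAP with SIPA1 (GAP) in every library (points) with group means (lines). The GAP sum is 17.6 in attached control and 99.6 in attached GFI1 cells on average, while the RAP1 sum stays between 10.7 and 13.6 in all libraries.

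A wider list of 43 genes of the RAP1 pathway gave 42 that could be tested, the exception being the exchange factor RAPGEF5 with at most 2 reads in any library. In attached cells 17 rose with GFI1 and 18 fell, beside 29.5% and 32.8% of all genes, and in floating cells 16 rose and 16 fell, beside 29.3% and 31.1%. Of these, 28 (66.7%) passed in the same direction in both states, beside 49.6% of all genes. The states share no libraries but were fitted in a single model. Whether both used the same pool of transduced cells is not given by the labels. The medians were -0.13 and 0.02, beside -0.01 and 0.01 over all genes.

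Of the other exchange factors, RAPGEF3 (EPAC1), which is opened by cyclic AMP, was at 1.25, 1.19 and 1.21 CPM in attached control cells and 4.23, 5.12 and 4.26 CPM in attached GFI1 cells. RAPGEF3 rose by log2 1.90 ± 0.19 in attached cells (adjusted p = 2.60e-09), against 1.63 ± 0.18 in the floating state (adjusted p = 1.50e-08). Its paralog RAPGEF4 (EPAC2) fell by 1.38 and 0.95 on the log2 scale (adjusted p = 0.00223 and 0.00684), and RAPGEF6 fell by 0.54 and 0.67. RAPGEF4 had only 6 to 10 reads in attached GFI1 libraries. Protein kinase A is the other main target of cyclic AMP. Of its subunits, the catalytic PRKACB rose (0.45 and 0.52) and the regulatory PRKAR1B fell (-1.02 and -0.85). Another regulatory subunit, PRKAR1A, rose (0.11 and 0.19), and the catalytic PRKACA did not pass the threshold in either state (-0.09 and 0.13). Among the 6 subunits, 2 rose and 2 fell in attached cells, beside 29.5% and 32.8% of all genes. In floating cells 2 rose and 3 fell, beside 29.3% and 31.1%.

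The other GTPase-activating proteins were also divided. RAP1GAP2, the closest relative of RAP1GAP, was at 30.2, 33.3 and 32.5 CPM in attached control cells and 9.97, 10.8 and 9.41 CPM in attached GFI1 cells. In floating cells RAP1GAP2 was at 43.5 to 47.8 CPM in control and 11.2, 12.3 and 10.1 CPM in GFI1 libraries. Its log2 changes were -1.67 ± 0.08 (adjusted p = 2.54e-15) and -2.01 ± 0.08 (adjusted p = 2.48e-17), the reverse direction to RAP1GAP, with no overlap. SIPA1L2 rose (0.95 and 0.90) and SIPA1L1 fell (-0.32 in each state). RASA3, a dual RAS and RAP1 GTPase-activating protein that opposes RASGRP2 in platelets, rose with GFI1 in attached cells (0.65 ± 0.05, adjusted p = 6.00e-11), while in floating cells its value was 0.06 ± 0.05 (adjusted p = 0.268). RASA3 also rose with suspension in control cells (0.88 ± 0.05, adjusted p = 1.13e-12), and its interaction was -0.59 ± 0.07 (adjusted p = 3.12e-06).

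Effectors, which carry the RAP1 signal onward, gave 5 that rose and 4 that fell of 11 in attached cells, and 5 and 3 in floating cells, where 62.3% and 60.4% of all genes passed. APBB1IP (RIAM), which links RAP1 to talin, was at 25.0, 21.3 and 23.6 CPM in attached control cells and 5.24, 5.08 and 6.26 CPM in attached GFI1 cells. The log2 change of APBB1IP was -2.07 ± 0.11 in attached cells (adjusted p = 5.86e-15). In the floating state it was -1.76 ± 0.11 (adjusted p = 2.04e-13). TLN1, which encodes talin, was 0.02 ± 0.04 in attached cells (adjusted p = 0.637), against rose by 0.15 ± 0.04 in the floating state (adjusted p = 0.00180). RALGDS rose by 0.98 and 1.15 and RGL2 by 0.66 and 0.62, while RGL1 fell by 2.59 and 1.91 on the log2 scale. RGL1 had only 6 to 10 reads in attached GFI1 libraries and 7 to 10 in floating GFI1 libraries. TIAM1, an exchange factor for RAC, fell with GFI1 in floating cells (-1.07 ± 0.18, adjusted p = 1.26e-05), while its value in attached cells was -0.24 ± 0.17 (adjusted p = 0.236).

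BCAR1 (p130CAS), which binds CRK and through it RAPGEF1, was at 89.1, 91.5 and 91.3 CPM in attached control cells and 303, 290 and 292 CPM in attached GFI1 cells. In floating cells BCAR1 was at 90.1, 83.5 and 83.8 CPM in control and 401, 415 and 372 CPM in GFI1 libraries. BCAR1 rose by log2 1.70 ± 0.05 (adjusted p = 1.85e-20) and 2.21 ± 0.05 (adjusted p = 1.09e-22), and CRK fell by 0.28 and 0.18. In the RAS to ERK chain, 5 of 10 genes rose and 5 fell in attached cells, beside 29.5% and 32.8% of all genes. In floating cells 5 rose and 3 fell, beside 29.3% and 31.1%. BRAF (0.58 and 0.45) and MAP2K2 (0.29 and 0.52) rose. HRAS (-0.56 and -0.29), MAP2K1 (-0.46 and -0.39) and MAPK3 (-0.45 and -0.42) fell.

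**Figure D4:**
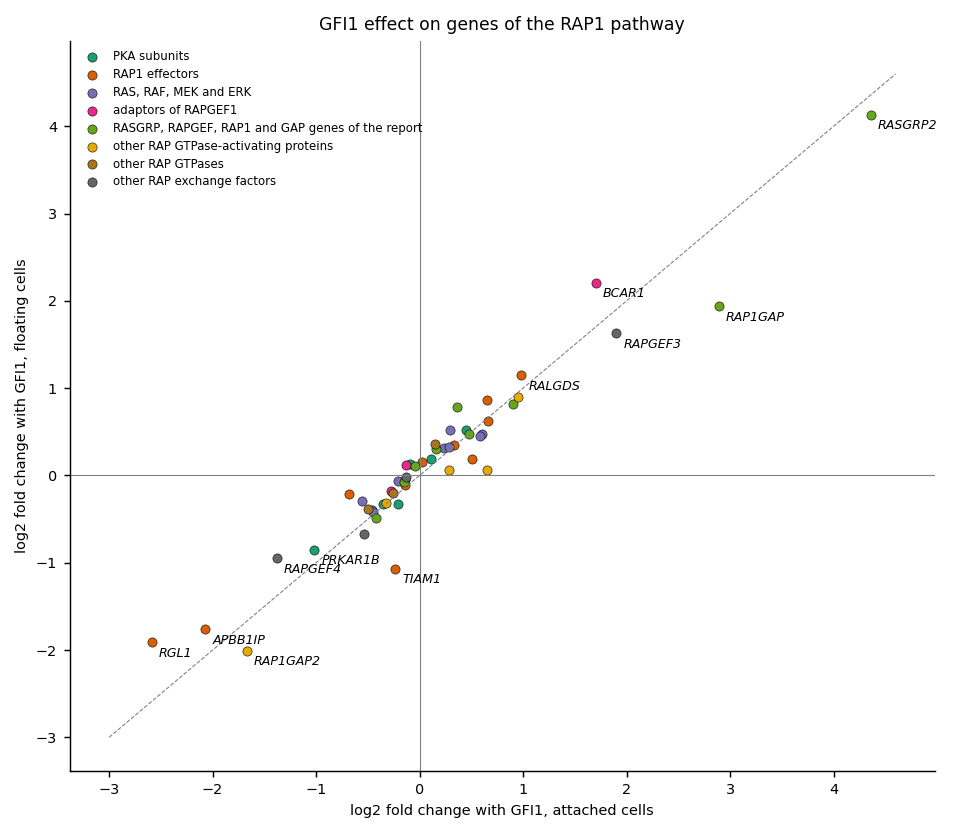
Log2 fold change with GFI1 in attached cells (x axis) and floating cells (y axis) for the 9 tested genes of the report and 42 other genes of the RAP1 pathway, colored by role; the dashed line marks equal change. RASGRP2 lies at the upper right (4.36 and 4.13), RAP1GAP below the line (2.89 and 1.94), and RAP1GAP2, APBB1IP and RGL1 at the lower left.

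Of 8 other genes of the table within 100 kb of RASGRP2, 6 could be tested. In attached cells 3 rose and 1 fell with GFI1, and in floating cells 3 rose and 0 fell, where 62.3% and 60.4% of all genes passed in either direction. PYGM, the upstream neighbor whose body holds 7 of the study's amplicons, was read 19 to 34 times per library. It was at 1.13, 1.09 and 1.15 CPM in attached control cells and 1.35, 1.52 and 1.35 CPM in attached GFI1 cells. The fitted PYGM change was 0.33 ± 0.28 (adjusted p = 0.307) in attached cells and 0.02 ± 0.27 (adjusted p = 0.949) in floating cells. NRXN2, 3.72 kb beyond the 3' end of RASGRP2, had 5 to 23 reads per library and rose by log2 1.24 ± 0.37 (adjusted p = 0.00573) and 1.04 ± 0.35 (adjusted p = 0.0136). Farther upstream, SF1, a splicing factor gene at 19.1 kb, fell by 0.24 in attached cells, and MAP4K2 at 39.5 kb rose by 0.46 and 0.37. The log2 changes of these neighbors were all smaller than that of RASGRP2 in both states.

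**Figure D5:**
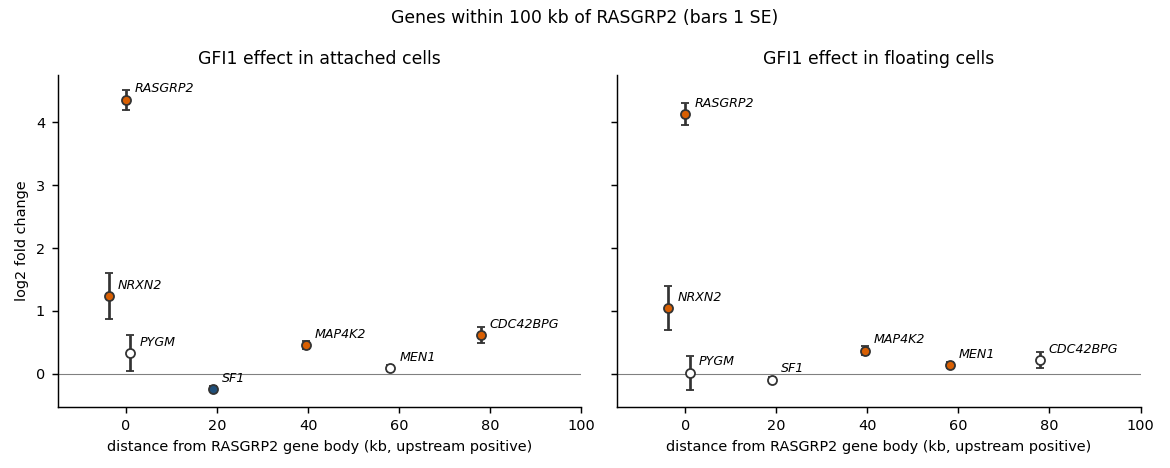
Log2 fold change with GFI1 (y axis, bars 1 SE) of RASGRP2 and the 6 tested genes within 100 kb, by distance in kb from the gene body of RASGRP2 (upstream positive), in attached and floating cells; filled points passed the threshold (orange higher, blue lower). RASGRP2 is above 4 log2 units and its closest upstream neighbor, PYGM, is an open point in both panels.

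Across the 12 libraries, the protein-coding genes whose log2 CPM was most like that of RASGRP2, of 13760 compared by Pearson's r, were CMPK2 (0.993), FAM207A, CASP1, MPP1 and EEF1A2 (0.990 each). These values share the 12 libraries and the 2 levels of GFI1, and GFI1 itself had r = 0.971. Among the genes of this report, RAPGEF2 (0.963), SIPA1 (0.927) and RAP1GAP (0.908) followed RASGRP2 and RAP1B ran against it (-0.975), which describes the group differences given above.

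Because RASGRP2 is known from platelets and blood cells, markers of such cells are given beside it. Of 5 platelet markers, PF4 had at most 3 reads and GP9 had 0 in every library. GP1BA had 140 to 207 reads per library and GFI1 effects of -0.01 and 0.07 on the log2 scale, neither past the threshold, and it made up most of the platelet sum. ITGA2B rose with GFI1 in attached cells (log2 0.76 ± 0.25, edgeR adjusted p = 0.0117), where control libraries (19 to 46 reads) and GFI1 libraries (40 to 73 reads) overlapped. In floating cells ITGA2B rose by 0.86 ± 0.28 (adjusted p = 0.0113) without overlap. PPBP went from 2 or 3 reads to 21 or 23 reads in attached cells. The summed level of the 5 platelet markers was 10.5 to 11.6 CPM in attached control and 11.6 to 14.7 CPM in attached GFI1 libraries, and 9.61 to 11.1 and 12.1 to 12.5 CPM in floating cells. Of 5 blood cell markers, CD3E had 0 reads, PTPRC had at most 1, and the sum was at most 1.42 CPM in any library. ITGAM, the only blood cell marker with enough counts to be tested, had 5 to 20 reads per library. Its GFI1 effect was -0.46 ± 0.33 (edgeR adjusted p = 0.227) in attached cells and -1.58 ± 0.37 (adjusted p = 0.000719) in floating cells. Of 5 endothelial markers, CDH5 went from 1 or 2 reads to 52, 55 and 85 reads with GFI1 in attached cells (log2 4.99 ± 0.40, adjusted p = 5.13e-11) and VWF rose (3.39 ± 0.62, adjusted p = 3.73e-05), while KDR had at most 1 read and TEK at most 3. The endothelial sum was 0.163 to 0.46 CPM in attached control and 3.65 to 5.26 CPM in attached GFI1 libraries, and 0.284 to 0.723 and 5.02 to 5.62 CPM in floating cells. The part of these markers in the RASGRP2 result was not tested.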

How the data were processed

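Poly-A RNA of A549 cells was sequenced in 12 libraries (4 groups of 3). The deposited values are raw counts per gene, made by the authors from reads aligned to hg38. The submitters' processing notes name Bowtie2 and HTSeq, and the study's methods name FastQC, Hisat2 and featureCounts. Annotation release and strand setting are not given in the sources used here. GENCODE v44, used for positions, held 99.1% of the identifiers.

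Groups came from the labels. Total counts were 17014188 to 20748677 per library, and a group with at most 3 counts in each library was treated as at the floor, which covers counting error only. In R 4.3.3, edgeR 4.0.16 was used with filterByExpr (minimum count 10, minimum total 15), TMM scaling (factors 0.939 to 0.971 in control and 1.04 to 1.06 in GFI1 libraries) and one quasi-likelihood model of 4 group means, with a biological coefficient of variation of 4.86%. For 5 contrasts, two-sided p values were adjusted by Benjamini-Hochberg over 17829 genes, and genes at or under 0.05 were called with no fold threshold, which is the threshold of the study. Levels between genes used the table's gene lengths. Replicates were compared in 12 pairs and differed by more than counting noise (chi-square per gene 2.01 to 11.8).

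The members, the pathway, neighbor and marker lists and the tests were chosen with earlier results of these data known. The text names all 10 genes, GFI1, genes of the fixed pathway list, all tested genes within 100 kb of RASGRP2 that it needs, and the 5 genes most like RASGRP2. Promoter sequences were taken from RefSeq (GRCh38.p14), with 17 windows for 9 of the 10 genes. Primer sequences were taken from the study's supplement and located in hg38. Alternatives were DESeq2 1.42.0, RLE, upper quartile and library size scaling, a fit limited to the 2 groups compared, a replicate block, robust empirical Bayes, a filter of at least 10 counts in every library or none, other gene lengths, and leaving out each library. The code was tested on simulated data. A few items of the lists and one sequence are not reported here.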

Additional observations from a re-analysis of the deposited data

Results flagged for a closer look

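The GFI1 effect differed between floating and attached cells for 7 genes of the RAP1 pathway, by edgeR's interaction test with Benjamini-Hochberg adjustment over all genes. They were 1 of the 9 tested genes of the report (11.1%) and 6 of the 42 other pathway genes tested (14.3%). These shares are near the 10.8% of all genes that passed. Values are the effect in floating minus that in attached cells on the log2 scale. RAP1GAP had -0.95 ± 0.06 (adjusted p = 2.81e-10), the GFI1 effect being upward in both states. RASA3 had -0.59 ± 0.07 (adjusted p = 3.12e-06), with an attached effect of 0.65 and a floating effect of 0.06. BCAR1 had 0.50 ± 0.07 (adjusted p = 8.85e-06), with effects of 1.70 and 2.21. TIAM1 had -0.83 ± 0.25 (adjusted p = 0.0323), with effects of -0.24 and -1.07. Smaller differences were found for SIPA1L3 (-0.21, adjusted p = 0.0286), HRAS (0.26, adjusted p = 0.0320) and MAP2K2 (0.23, adjusted p = 0.0385).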

How the results depend on the processing

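Of 1023 alternative values for the log2 changes of the 9 tested genes and GFI1, 972 kept their direction and side of the threshold, 16 lost and 7 gained a call, and 28 changed sign, none of them from a called value. In attached cells 1 gene fell with GFI1 in place of 2 (RAP1A was lost) with DESeq2, upper quartile scaling, library size only, at least 10 counts in every library and only the 2 groups compared, and 1 to 3 fell when single libraries were left out. In floating cells 4 to 6 rose and 1 to 2 fell over those omissions. With suspension of control cells 1 in place of 2 rose without the low-count filter (RAP1B was lost), and 1 to 2 over omissions. With suspension of GFI1 cells 0 in place of 1 fell with at least 10 counts in every library, where RASGRP2 is no longer tested. Of the wider pathway, 3 in place of 5 fell with suspension of GFI1 cells with upper quartile scaling and only the 2 groups compared, 3 to 5 over omissions, and the interaction gave 1 to 4 higher and 1 to 4 lower. The library size setting moved the median of all genes to 0.140 in both GFI1 effects. Sign changes were RAPGEF1 with GFI1 in attached cells (0.0127 with upper quartile, 0.108 with library size, -0.09 to 0.00191 over omissions), RAP1A in floating cells (0.0555 with library size), RAPGEF2 with suspension of control cells (0.000491 with DESeq2, 0.000133 with RLE, 0.0129 with upper quartile, 0.0138 with library size, 0.00585 with at least 10 counts, -0.08 to 0.0436 over omissions) and the interaction of SIPA1 (0.0130 without the filter, -0.04 to 0.0462 over omissions). Over omissions alone, suspension of control cells gave -0.26 to 0.0857 for RASGRP1, -0.60 to 0.0762 for RASGRP2 and -0.285 to 0.72 for RASGRP4, suspension of GFI1 cells gave -0.170 to 0.11 for RASGRP1, and the interaction gave -0.0760 to 0.27 for RASGRP1 and -0.56 to 0.115 for RASGRP2. The cause of these changes was not tested, apart from the smaller number of libraries in omissions.

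Replicate numbers did not pair the libraries: same-numbered libraries correlated between -0.031 and 0.031 over 18 pairs, and 3 of 12 libraries correlated best with their own number. With a replicate block, 4 genes rose and 2 fell with GFI1 in attached cells and 4 rose and 1 fell in floating cells. Control libraries held 8 to 27 RASGRP2 reads and all libraries 5 to 23 RASGRP4 reads, which limits both.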
